A study of Mus musculus with 221 samples.

Results

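The Zscan4 family of the mouse was described at the 2-cell stage, with its members taken by name from the count table: Zscan4a, Zscan4b, Zscan4c, Zscan4d, Zscan4e and Zscan4f. All 6 members were found among the 55291 genes of the table, and 3 further copies, Zscan4-ps1, Zscan4-ps2 and Zscan4-ps3, were used for comparison. The values are counts from single early 2-cell embryos, fertilized in vitro. The fathers were C57BL/6N males kept for 2 weeks on food rich in fat (HFD) or poor in fat (LFD) and killed at 8 weeks of age. All oocytes came from unexposed C57BL/6N-mtST females, which carry the nuclear genome of C57BL/6N and the mitochondrial DNA of the Staudach line, and whose stated age was 3 to 16 weeks. Embryos were grouped by the diet of the sire, with 99 embryos in LFD and 23 more than that in HFD. A few males stood behind each diet, and the labels do not say which male or which fertilization date an embryo came from, so p-values measure the spread between embryos and take no account of the sire. Each library held all blastomeres of 1 embryo, so fewer cells that express a gene and less RNA per cell cannot be told apart.

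Zscan4 proteins carry a SCAN domain, through which proteins of this family pair with each other, and zinc fingers that bind DNA. The genes are silent in the oocyte and are switched on in the 2-cell embryo, when the embryo begins to transcribe its own genome, and they flicker on in a small share of embryonic stem cells. The homeodomain factor Dux and the chromatin proteins Dppa2 and Dppa4 are known to activate them, and Zscan4 has been linked to telomere lengthening by recombination and to loss of DNA methylation.

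The 9 copies lay in 1 cluster on chromosome 7 of build GRCm38, chr7:10794242-11614112, a span of 819.871 kb with 5 copies on the minus and 4 on the plus strand. In the order of the cluster these were Zscan4a (chr7:10794242-10799057, minus), Zscan4b (chr7:10900740-10905050, minus), Zscan4c (chr7:11005745-11010547, plus), Zscan4-ps1, Zscan4d (chr7:11161374-11166159, minus), Zscan4e (chr7:11306378-11310682, minus), Zscan4f (chr7:11397915-11402318, plus), Zscan4-ps2 and Zscan4-ps3. The annotations did not put the same label on every copy. Zscan4a was a pseudogene in both GENCODE M21 and RefSeq, while Zscan4e and the 3 copies with ps in their name were protein-coding in GENCODE and pseudogenes in RefSeq. Zscan4b, Zscan4c, Zscan4d and Zscan4f were protein-coding in both. No annotated gene overlapped a copy on either strand, so the reads of a copy could not be taken for those of an overlapping gene.

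The copies are nearly identical in sequence, which bears on every count below, because reads that align to several places were left out when the counts were made. The 6 members were aligned over 1515 positions that are coding in every member but Zscan4a, which has no coding annotation in GENCODE. Of these positions, 72 varied. The stretch of 60 bases in exon 4 that sets the most members apart, with 9 variable positions, is shown as an example. The members also differ at positions outside it. The stretch is given 5′ to 3′ on the strand of each gene, from GENCODE M21 on GRCm38, with the variable positions in capitals.
Zscan4a, chr7:10795661-10795720, minus strand: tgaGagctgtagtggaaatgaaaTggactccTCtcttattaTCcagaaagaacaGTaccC
Zscan4b, chr7:10901659-10901718, minus strand: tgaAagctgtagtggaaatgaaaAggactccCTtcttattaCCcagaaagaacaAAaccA
Zscan4c, chr7:11009072-11009131, plus strand: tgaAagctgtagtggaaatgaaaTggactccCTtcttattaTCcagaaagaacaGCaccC
Zscan4d, chr7:11162786-11162845, minus strand: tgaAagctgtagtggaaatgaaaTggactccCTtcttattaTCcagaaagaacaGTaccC
Zscan4e, chr7:11307288-11307347, minus strand: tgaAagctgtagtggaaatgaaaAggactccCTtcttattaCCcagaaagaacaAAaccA
Zscan4f, chr7:11401265-11401324, plus strand: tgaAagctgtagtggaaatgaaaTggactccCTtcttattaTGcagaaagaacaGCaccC
Even here the 6 members gave 5 distinct sequences, since Zscan4b and Zscan4e were the same. Over whole transcripts Zscan4b and Zscan4e were identical at 99.7% of aligned bases. The exon of 472 bases was the same in Zscan4a and Zscan4c, with 0 differing bases.

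What this leaves to count was measured as the share of 150-base windows of a transcript, the length of 1 read, that occur in no other Zscan4 copy. The share was 87% for Zscan4d and 74.9% for Zscan4a, the largest of the members. Windows of this length were not compared with genes outside the family. It was 38.98% for Zscan4c, 31.6% for Zscan4b and 22.6% for Zscan4e, and only 13.8% for Zscan4f, whose windows were most often shared with Zscan4-ps2. A read whose partner lies in unique sequence can still be placed, so these shares are a guide to the loss and not its size. The map of the cluster shows these shares beside the levels.

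**Figure D1:**
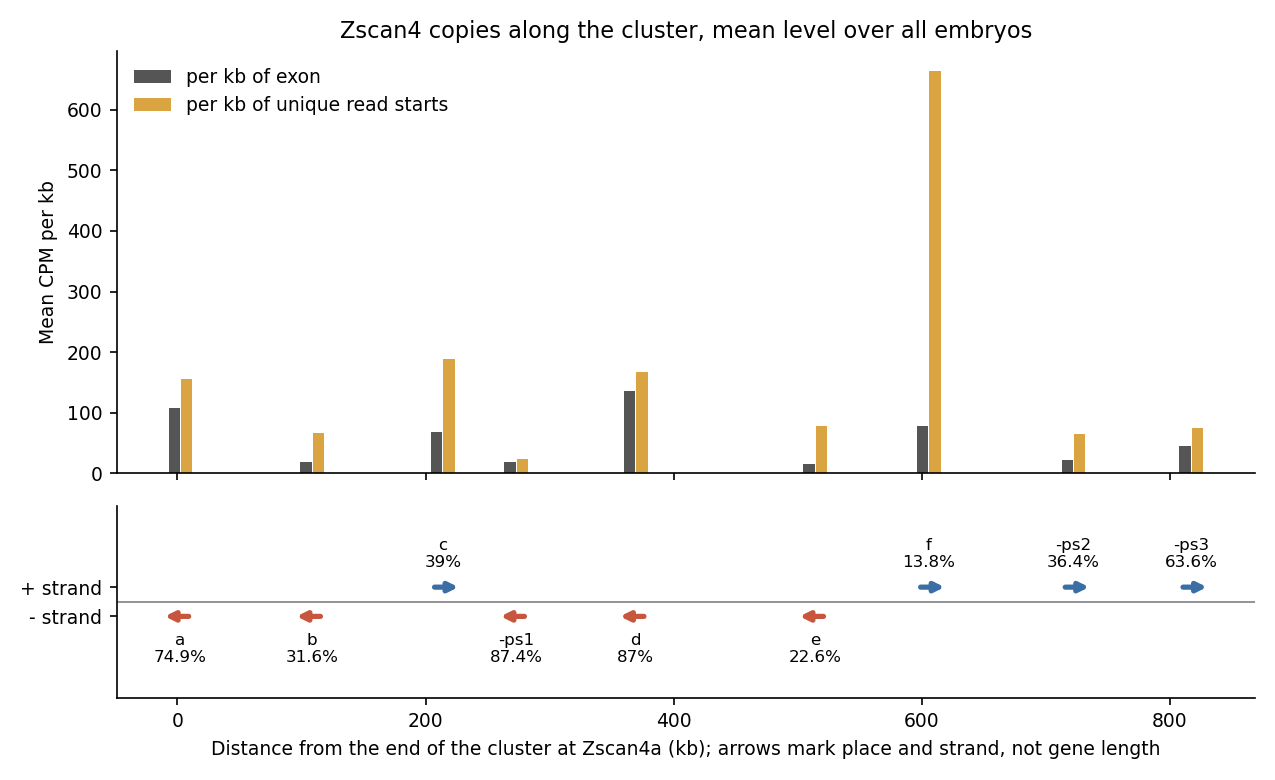
The upper panel gives the mean CPM per kb of each copy over all embryos, per kb of exon (grey) or per kb of 150-base windows found in no other copy (yellow), against the distance in kb from the Zscan4a end of the cluster. The lower panel marks the strand of each copy and the percent of its windows that are unique, from 13.8% (f) to 87.4% (-ps1). Zscan4d is the highest member per kb of exon and Zscan4f per kb of unique windows.

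The promoters of the family, from RefSeq on GRCm38.p6, were at hand for Zscan4b, Zscan4c, Zscan4d and Zscan4f and were 95.3% to 99.3% identical over aligned bases. The letters TGATTCAA, a shortened form of the motif bound by Dux that was chosen after the promoters were seen, stood 184 bases before the annotated start in Zscan4c, 195 in Zscan4d and 161 in Zscan4f. In Zscan4b the same place held the substitution T1C, counted from the first base of these 8 letters. The windows of 120 bases around it are shown with the 8 letters in capitals, 5′ to 3′ on the strand of the gene.
Zscan4b, chr7:10905122-10905241, minus strand: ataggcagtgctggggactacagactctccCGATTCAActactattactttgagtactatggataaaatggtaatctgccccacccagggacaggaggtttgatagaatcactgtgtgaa
Zscan4c, chr7:11005531-11005650, plus strand: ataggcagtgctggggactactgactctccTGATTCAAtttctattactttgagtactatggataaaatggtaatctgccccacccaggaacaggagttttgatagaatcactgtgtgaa
Zscan4d, chr7:11166254-11166373, minus strand: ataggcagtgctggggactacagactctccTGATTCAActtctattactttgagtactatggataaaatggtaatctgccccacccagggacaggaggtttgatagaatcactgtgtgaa
Zscan4f, chr7:11397724-11397843, plus strand: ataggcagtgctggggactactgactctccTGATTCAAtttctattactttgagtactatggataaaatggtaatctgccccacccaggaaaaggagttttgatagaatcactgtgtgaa
Searched on both strands, TGATTCAA occurred in 0.581% of 32851 promoter windows of the same length. The whole Dux motif, which is longer, occurred in 0.0335% and in none of the 4. TATAAA was present in all 4, beginning 31 to 65 bases before the annotated start, and in 13.6% of all windows. TGCACAC, letters reported to be bound by Zscan4 itself, was in 4.396% of all windows and in none of the 4. These are matches of letters, and the annotated starts differ between the copies.

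Total counts per embryo were 1937251 to 17246791 in LFD (median 5701723) and 2296020 to 13155271 in HFD (median 5718555), and 11364 to 21638 genes had a count. The 8 libraries with the fewest genes, 4 in each diet, were left out in an alternative fit. The summed level of 7 sperm markers was at most 20.1 CPM. That of 13 cumulus markers ranged from 0.843 to 60.9 CPM in LFD and from 2.06 to 297 CPM in HFD embryos, and 8 of them, Has2 and Fshr included, had a median of 0. Summed macrophage markers ranged from 16.1 to 135 CPM in LFD and from 12.8 to 4005 CPM in HFD embryos, with a median of 0 for Adgre1, Fcer1g, Tyrobp, C1qa and C1qc. Maternal transcripts were abundant, at 11539 to 35252 CPM in LFD and 10740 to 33193 CPM in HFD embryos, and 32 of the 34 other 2-cell genes in the table had a median above 0.

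Levels are given first in CPM, the counts of a gene per 1000000 counts of the embryo. Zscan4d ranged from 79.6 CPM over a median of 246.5 to 1101 CPM in LFD embryos and from 43.2 over 296.2 to 1391 CPM in HFD embryos. Zscan4a ranged from 29.8 over a median of 204.5 to 583 CPM in LFD and from 37.2 over 234.3 to 975 CPM in HFD embryos. These were the most abundant members, and every embryo had at least 178 counts of Zscan4a and 253 counts of Zscan4d.

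The next level was that of Zscan4c and Zscan4f. Zscan4c ranged from 14.1 over a median of 115.1 to 552 CPM in LFD and from 21.2 over 145.8 to 739.8 CPM in HFD embryos. Zscan4f ranged from 20.8 over a median of 128.5 to 418 CPM in LFD and from 22.7 over 146.5 to 734.5 CPM in HFD embryos. Both were present in every embryo, with at least 87 and 116 counts.

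Zscan4b and Zscan4e, the pair with the most similar sequence, were also the pair with the lowest levels. Zscan4b ranged from 5.82 over a median of 30.1 to 124.4 CPM in LFD and from 0 over 29.4 to 152 CPM in HFD embryos. Zscan4e ranged from 1.59 over a median of 25.7 to 188 CPM in LFD and from 0 over 23.4 to 120 CPM in HFD embryos. Each was at 0 in 1 HFD embryo, Zscan4b in embryo 42, one of the libraries with few genes, and Zscan4e in embryo 28. The ranges of both diets overlapped for every member.

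**Figure D2:**
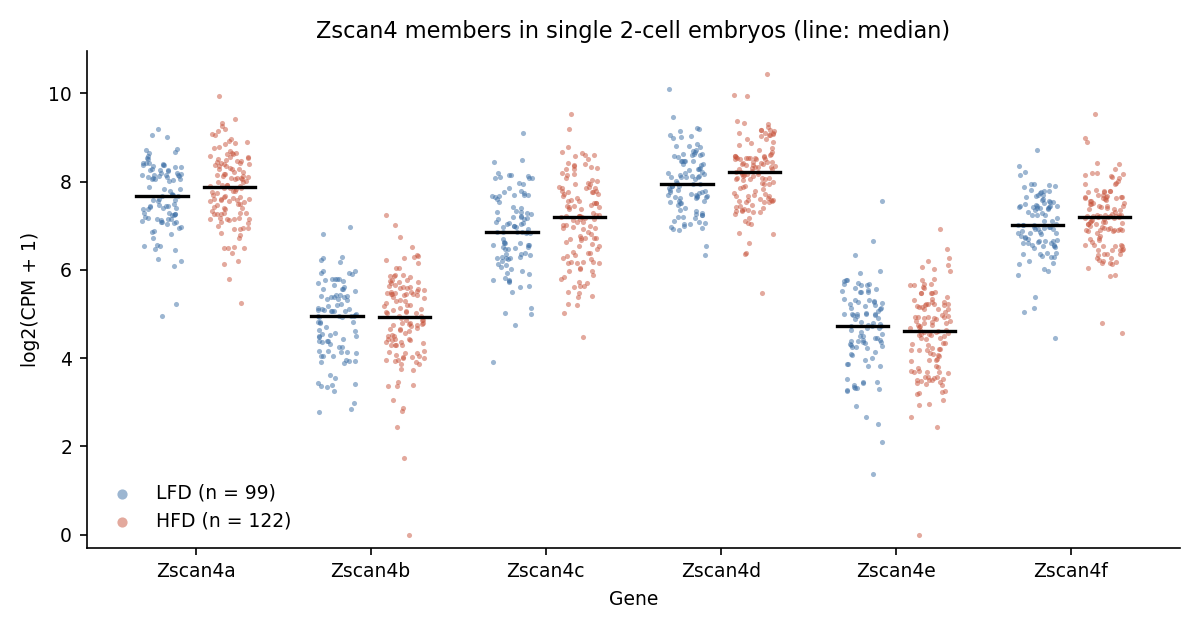
Each point is 1 embryo, with its log2(CPM + 1) on the vertical axis, for the 6 members in LFD (blue, n = 99) and HFD (red), and the line is the median. The clouds of both diets overlap for every member, with medians of 246.5 and 296.2 CPM for Zscan4d and of 25.7 and 23.4 CPM for Zscan4e in LFD and HFD.

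Per kb of exon the order of the mean levels was Zscan4d (135.6 CPM per kb), Zscan4a (108.6), Zscan4f (78.6), Zscan4c (68.5), Zscan4b (19.1) and Zscan4e (15.9). Only the step from Zscan4c to Zscan4b was larger than its spread between embryos: the log2 ratio had a median of 1.81 with an SD of 0.77, and Zscan4c was the higher one in every embryo. The neighbours Zscan4d and Zscan4a differed by a median log2 ratio of 0.33 with an SD of 0.56, with Zscan4d higher in 164 embryos. Zscan4a exceeded Zscan4f in 180 embryos, Zscan4f exceeded Zscan4c in 151 and Zscan4b exceeded Zscan4e in 159, each by a median log2 ratio below its SD.

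The order depended on what a kb counts. Per kb of unique windows Zscan4f stood first with 664 CPM per kb, ahead of Zscan4c (188) in all but 1 embryo, then came Zscan4d (167), Zscan4a (155), Zscan4e (78.9) and Zscan4b (66.7). On that scale Zscan4c, Zscan4d and Zscan4a did not differ beyond their spread, with median log2 ratios of 0.12 and 0.12 against SDs of 0.53 and 0.56. The place of Zscan4f rests on 232 unique windows, the fewest of any copy. Zscan4b and Zscan4e stood below the other members on both scales, but their order between themselves was reversed.

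The shares of the members had close medians in both diets. Zscan4d took a median of 33.4% of the counts of the 6 members in LFD and 33.4% in HFD embryos, and Zscan4a took 26.7% and 26.3%. Zscan4c took 14.7% in LFD and 16.3% in HFD, Zscan4f 17.52% and 17.04%, Zscan4b 3.92% and 3.59%, and Zscan4e 3.35% and 2.69%. Between single embryos the share of Zscan4d ran from 16.02% to 59.6% and that of Zscan4a from 10.1% to 44.2%. By counts Zscan4d was the highest member in 161 embryos, Zscan4a in 57 and Zscan4f in 3.

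The 6 members together made up 205 to 2913 CPM in LFD embryos (median 796) and 148 to 3203 CPM in HFD embryos (median 903). Between the 10th and the 90th percentile of embryos the sum differed 3.02-fold in LFD and 3.53-fold in HFD, and between the extremes 14.2-fold and 21.6-fold. The lowest sums were those of HFD embryo 110 (148 CPM) and LFD embryo 46 (205 CPM), and the highest those of HFD embryo 17 (3203 CPM) and LFD embryo 45 (2913 CPM). None of these 4 was among the libraries with few genes, and in LFD embryo 45 every member other than Zscan4a stood at its highest LFD value.

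Members varied more between embryos than most genes of their level. The dispersion fitted by edgeR, the squared variation left beyond counting error, was 0.266 for Zscan4d, 0.285 for Zscan4a, 0.245 for Zscan4f, 0.408 for Zscan4c, 0.408 for Zscan4b and 0.442 for Zscan4e. Relative to the trend of genes with the same abundance these were 1.63 times (Zscan4e) to 2.92 times (Zscan4c) higher. The members stood between the 88.4th and the 98.8th percentile of the 14820 tested genes by this ratio, and the 3 other copies between 98.1 and 99.2 on the same scale.

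The members varied together. Across LFD embryos (n = 99) the 15 pairs of members had a Spearman's rho of 0.54 (Zscan4a and Zscan4e) to 0.84 (Zscan4c and Zscan4d), with a median of 0.73. Across HFD embryos rho ran from 0.60 (Zscan4e and Zscan4f) to 0.86 (Zscan4c and Zscan4d), with a median of 0.75. For comparison, the rho of Zscan4d with the 14811 other tested genes had a median of -0.04 in LFD and -0.03 in HFD embryos. The highest of these were 0.78 in LFD (Ldhb) and 0.74 in HFD embryos (Gm6489). With the other members Zscan4d had a rho of 0.63 (Zscan4e) to 0.84 (Zscan4c) in LFD embryos. In HFD embryos it had 0.71 (Zscan4b) to 0.86 (Zscan4c), so some genes outside the family were as close to Zscan4d as some members. The points of a pair share a library, its depth and its scaling, and reads of near-identical copies can be placed on the wrong one, so these values are given as a description.

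**Figure D3:**
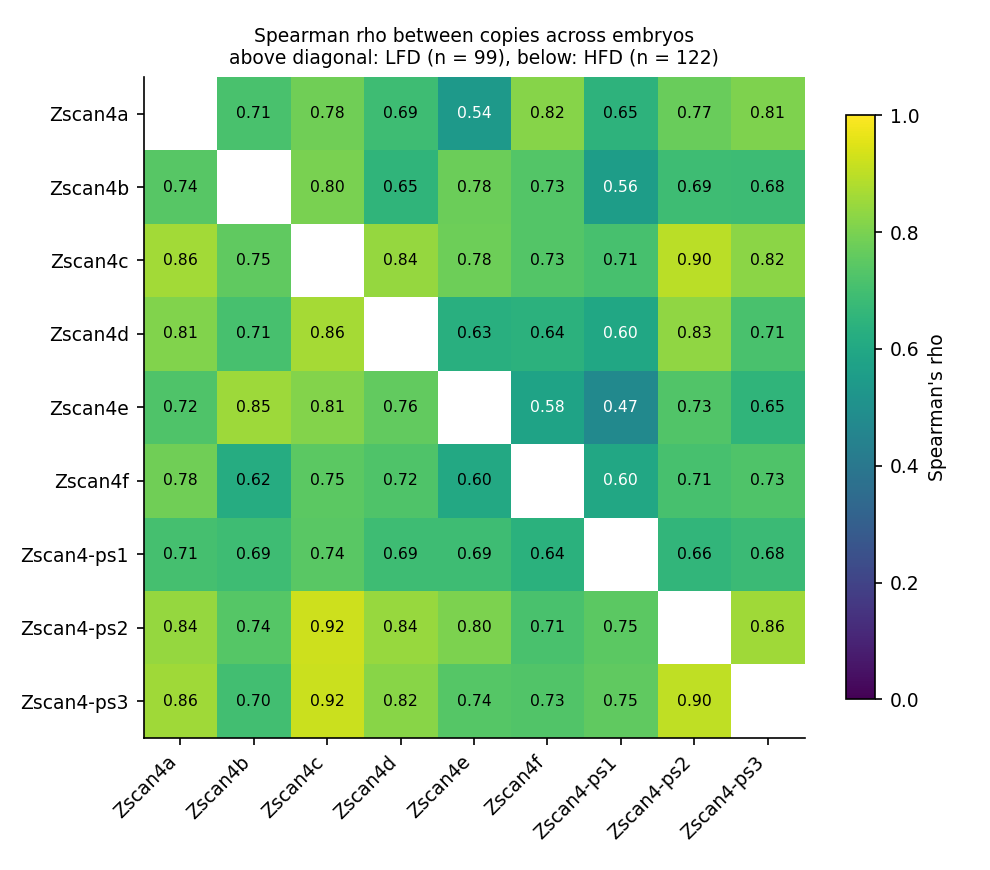
Each cell gives Spearman's rho between a pair of copies across embryos, above the diagonal in LFD (n = 99) and below it in HFD, from log2(CPM + 1). All values are positive, and among members they run from 0.54 to 0.86.

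The 3 other copies followed the members. Zscan4-ps3 had a median of 75.2 CPM in LFD and 85.2 CPM in HFD embryos, Zscan4-ps2 35.99 and 44.4 CPM, and Zscan4-ps1 26.2 and 29.5 CPM. Per kb of exon Zscan4-ps3 (45.03 CPM per kb) stood above Zscan4b and Zscan4e. Their slopes on Zscan4d, as defined below, were 1.08 ± 0.08 (SE) for Zscan4-ps1, 1.21 ± 0.05 for Zscan4-ps2 and 1.10 ± 0.06 for Zscan4-ps3.

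Whether the paternal diet moved the members was asked with 1 fit over all genes (edgeR quasi-likelihood test, Benjamini-Hochberg adjustment over 14820 tested genes). In that fit 2.15% of the genes were called at an adjusted p under 0.05, 1.26% as higher and 0.891% as lower in HFD. No member was called (0 of 6), although 4 of 6 had an unadjusted p under 0.05, as did 13.1% of all tested genes. DESeq2 and limma-voom also called 0 of 6, with 4 and 3 members at an unadjusted p under 0.05. Over all genes these tools called 3.12% and 2.23%, with 14.7% and 14.2% at an unadjusted p under 0.05. The exception among all fits run was Zscan4c without a filter on low counts, at 0.35 (edgeR, adjusted p = 0.0444), in a fit that called 15.4% of 45512 genes. No member was called with the summed macrophage markers as a covariate or without the 8 libraries with few genes.

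The fold changes were small beside the spread between embryos. Zscan4c had a log2 fold change, HFD over LFD, of 0.37 ± 0.13 (SE, adjusted p = 0.12), with a log2(CPM + 1) of 6.85 ± 0.90 (SD) in LFD and 7.11 ± 0.99 in HFD. For Zscan4a the log2 fold change was 0.28 ± 0.11 (adjusted p = 0.18), between 7.64 ± 0.77 and 7.84 ± 0.80. For Zscan4d it was 0.25 ± 0.10 (adjusted p = 0.23), between 7.99 ± 0.69 and 8.16 ± 0.77. For Zscan4f it was 0.23 ± 0.10 (adjusted p = 0.25), between 7.01 ± 0.71 and 7.17 ± 0.74. Zscan4b, at 0.11 ± 0.13 (adjusted p = 0.80), and Zscan4e, at -0.09 ± 0.13 (adjusted p = 0.86), had the smallest values.

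Of the HFD embryos, 77 stood above the LFD median of Zscan4d (63.1%), 76 above that of Zscan4c, 75 above that of Zscan4f and 70 above that of Zscan4a, while 60 did so for Zscan4b and 55 for Zscan4e. The highest LFD value was exceeded by 1 HFD embryo for Zscan4d, 2 for Zscan4b and Zscan4c, 3 for Zscan4f, 5 for Zscan4a and 0 for Zscan4e. The median log2 fold change of the 6 members was 0.24, beside 0.01 for all tested genes. Over all tested genes 5% of the values lay below -0.27 and 5% above 0.31. Zscan4c, at 0.37, lay above that range, and the other members lay within it. The members are near-identical copies that varied together, so their values are not independent of each other. Among the other 2-cell genes the median log2 fold change was -0.03. Of the 31 tested ones edgeR called 0, with 6 (19.4%, beside 13.1% of all genes) at an unadjusted p under 0.05. DESeq2 called 1 of the 31 and limma-voom 0.

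The difference between the diets had both signs along the embryo numbers, whose meaning the labels do not give. The numbers were cut into ranges of 10, of which 11 held embryos of both diets. In all 8 ranges up to number 80 the mean log2 sum of the members stood higher in HFD, by 0.11 to 0.79. In the 3 ranges from 81 to 110 it was lower, by 0.34 (from 9.89 to 9.55), by 0.08 (from 9.29 to 9.21) and by 0.88 (from 9.75 to 8.88). In the last of these there were 4 LFD and 10 HFD embryos. Zscan4d alone was higher in HFD in 8 of 11 ranges and Zscan4e in 6 of 11. With the ranges as a random effect in limma-voom, Zscan4c had a log2 fold change of 0.31 (adjusted p = 0.22) and Zscan4d of 0.22 (adjusted p = 0.27).

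Whether embryos of 1 diet were more unequal was tested on the absolute deviations of log2(CPM + 1) from the median of the diet, with limma over the same genes. Here 0.054% of genes were called, and no member was (0 of 6, also at an unadjusted p under 0.05). The mean deviation was larger in HFD than in LFD embryos by 0.11 ± 0.08 (SE) for Zscan4c (adjusted p = 0.72), by 0.09 ± 0.08 for Zscan4b (adjusted p = 0.78) and by 0.02 ± 0.06 for Zscan4f (adjusted p = 0.94). For Zscan4a it was larger by 0.04, for Zscan4d by 0.05 and for Zscan4e by 0.05. Over all tested genes the median of this difference was 0.04, with 5% of genes below -0.08 and 5% above 0.17, so all members lay within that range.

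How the level of the family related to features of the library was asked for Zscan4d, the most abundant member, in each diet by itself. Its relation to the total count did not pass the test in either diet (Spearman's rho of -0.08 in LFD and -0.03 in HFD, permutation p adjusted over 14 relations = 0.58 and 0.84). It was lower where more genes were detected, with rho of -0.31 (Pearson's r of -0.38) in LFD and -0.32 (r of -0.43) in HFD embryos. The adjusted permutation p of rho was 0.00482 and 0.000665, and that of r was 0.000364 and 7e-05. Without the 2 embryos farthest from the median number of genes r was -0.28 and -0.37.

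Zscan4d fell with the embryo number in HFD embryos, with rho of -0.35 (r of -0.34, and -0.37 without the 2 farthest numbers) and an adjusted permutation p of 0.000665 for rho and 0.000364 for r. In LFD embryos rho was 0.11 (r of 0.10, adjusted permutation p = 0.45 for rho and 0.42 for r). It was related to the summed maternal transcripts in both diets, with rho of 0.50 in LFD (r of 0.49) and 0.49 in HFD (r of 0.45). For rho both adjusted permutation p were 7e-05, from the smallest value the permutations can give, 1e-05, and without the 2 farthest embryos r was 0.50 and 0.56. The adjusted permutation p of r was 7e-05 in LFD and 9.33e-05 in HFD. For the mitochondrial percent of counts rho was -0.34 in LFD (r of -0.22, adjusted permutation p = 0.00159 for rho and 0.0586 for r) and 0.11 in HFD (r of 0.07, adjusted permutation p = 0.40 and 0.51). For the summed macrophage markers rho was 0.36 in LFD (r of 0.36, adjusted permutation p = 0.00098 and 0.00049) and -0.03 in HFD (r of -0.14, adjusted permutation p = 0.84 and 0.21). The differences between the diets were not tested.

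Which genes varied with Zscan4 between embryos of the same diet was tested as a slope with edgeR: the log2 change of a gene per unit of log2(CPM + 1) of Zscan4d, with diet as a covariate and the Zscan4 copies left out. At an adjusted p under 0.05, 41.8% of 14811 genes had a slope, 20.3% with a positive and 21.5% with a negative one. The lists below are read against these shares. In limma-voom 2101 of the called slopes were positive (14.2% of all genes) and 4980 negative (33.6%), against 3011 and 3183 in edgeR. The slopes take in whatever else differs between embryos of 1 diet. With the number of detected genes as a further covariate 6847 genes were called instead of 6194. Of these slopes 3203 (21.6% of all genes) were positive and 3644 (24.6%) negative. Without the libraries with few genes these shares were 22.8% and 24.3%.

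In LFD embryos by themselves 4009 genes were called, or 27.1% (14.7% positive and 12.3% negative), and in HFD embryos 3413, or 23% (11.1% and 12%). Both diets shared 2025 of these genes, 50.5% of the LFD and 59.3% of the HFD calls. Of these 2025 genes, 2024 had the same sign in both diets. A difference of the slope between the diets was called for 1 gene, 0.00675% of those tested, with 1098 genes at an unadjusted p under 0.05.

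The genes whose pattern was most like that of Zscan4d were chosen by Spearman's rho across LFD embryos among the 9709 genes whose mean log2 CPM reached 3, and read in HFD embryos, which the choice did not use. The 10 highest had a rho of 0.64 to 0.78 in LFD and 0.49 to 0.68 in HFD embryos, positive in 10 of 10. The 10 lowest had a rho of -0.62 to -0.59 in LFD and -0.58 to -0.31 in HFD embryos, negative in 10 of 10. All 20 permutation p in HFD embryos, adjusted over the 20 genes, were between 1.25e-05 and 0.00062 for rho. In HFD embryos 5% of these 9709 genes lay above 0.38 and 5% below -0.39, and 2 of the 10 highest and 2 of the 10 lowest genes were also among the 10 most extreme there.

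Ldhb (chr6:142490249-142507957), a subunit of lactate dehydrogenase, was first. It ranged from 279 over a median of 632.3 to 2390 CPM in LFD and from 305 over 631.6 to 3120 CPM in HFD embryos, and the diets overlapped. Its rho with Zscan4d was 0.78 in LFD and 0.62 in HFD embryos (r of 0.73 and 0.52, and 0.59 in HFD without the 2 embryos with the most extreme Ldhb), with an adjusted permutation p of 1.25e-05 for rho and r. Per unit of Zscan4d it rose by 0.48 ± 0.05 (SE).

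The second, Gm5698 (chr1:30977243-30977968), is annotated as a pseudogene in RefSeq and ranged from 0 to 365.7 CPM in LFD and from 11.1 to 293.5 CPM in HFD embryos. Its rho was 0.69 in LFD and 0.68 in HFD embryos and its slope 0.83 ± 0.08, the steepest of the 10. The long non-coding RNA 4931428L18Rik (chr1:30997842-31222684), its neighbour, had a rho of 0.64 and 0.53.

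A pair of genes of B-type cyclins, which drive entry into mitosis, was among the 10. Ccnb1, encoding cyclin B1, had a median of 1114 CPM in LFD and 1194 CPM in HFD embryos, with a rho of 0.66 and 0.65 and a slope of 0.33 ± 0.03. Ccnb2, encoding cyclin B2, had a median of 103.8 and 101.2 CPM, a rho of 0.64 and 0.52 and a slope of 0.50 ± 0.05. The others were Eif2b1, a subunit of the translation initiation factor eIF2B (rho of 0.66 and 0.60), Mgst3, a microsomal glutathione S-transferase (0.65 and 0.49), Hmces, which shields abasic sites in single-stranded DNA (0.65 and 0.57), Vta1, which acts in endosomal sorting (0.64 and 0.56), and Parl, a rhomboid protease of mitochondria (0.64 and 0.53).

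At the other end stood Map2k3, a kinase that activates p38, with a median of 52.1 CPM in LFD and 48.3 CPM in HFD embryos. Its rho was -0.62 in LFD and -0.50 in HFD embryos, and per unit of Zscan4d it fell by 0.51 ± 0.06. Map1lc3a, an LC3 protein of autophagosomes, had a rho of -0.60 and -0.56, and AI506816, a long non-coding RNA, -0.60 and -0.58. The others were Prr12 (-0.61 and -0.36), Ankrd54 (-0.61 and -0.40), Pheta1 (-0.61 and -0.42), Mboat7, an acyltransferase for lysophosphatidylinositol (-0.60 and -0.43), Zc3h12a, an RNA-cleaving enzyme (-0.60 and -0.38), Abhd8 (-0.60 and -0.31) and Abtb2 (-0.59 and -0.41). Their mean levels ran from 8.43 to 57.05 CPM, and 9 of the 10 genes were at 0 in at least 1 embryo.

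**Figure D4:**
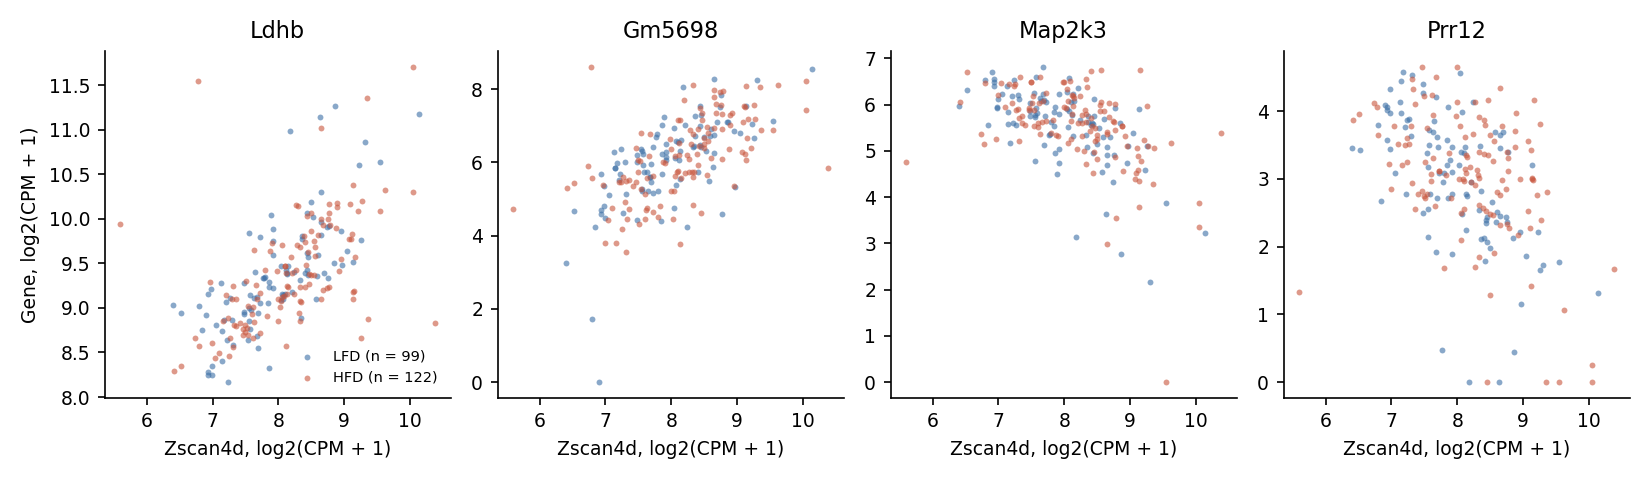
Each point is 1 embryo, with log2(CPM + 1) of Zscan4d on the horizontal and of a gene on the vertical axis, for the 2 genes of highest (Ldhb, Gm5698) and of lowest rho (Map2k3, Prr12) in LFD embryos, with LFD in blue and HFD in red. The sign is the same in both diets, with rho in HFD embryos of 0.62, 0.68, -0.50 and -0.36, and a few embryos lie far from it.

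Among the activators, 6 genes passed the filter, of which 2 had a positive and 1 a negative slope. These were shares of 33.3% and 16.7%, beside 20.3% and 21.5% of all genes. limma-voom called 1 positive and 2 negative ones (16.7% and 33.3%, beside 14.2% and 33.6% of all genes). In LFD embryos by themselves 2 were positive and 0 negative (beside 14.7% and 12.3% of all genes). In HFD embryos 1 was positive and 1 negative (16.7% each, beside 11.1% and 12% of all genes). Dux is listed as Duxf3 with Gm4981 beside it on chromosome 10, 2 nearly identical double homeobox genes that can share reads. Gm4981 ranged from 0 over a median of 16.2 to 96.1 CPM in LFD and from 0 over 14.7 to 60.9 CPM in HFD embryos and had a slope of 0.45 ± 0.10 (edgeR, adjusted p = 0.000107). Duxf3 ranged from 0 over a median of 2.55 to 14.2 CPM in LFD and from 0 over 2.92 to 21.01 CPM in HFD embryos and had a slope of 0.43 ± 0.13 (adjusted p = 0.00391). Both genes were at 0 in at least 1 embryo of each diet.

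The other activators had slopes near 0 or below it. Dppa2 had a slope of 0.04 ± 0.04 (adjusted p = 0.35) at a median of 95.9 CPM in LFD and 104.7 CPM in HFD embryos. Dppa4 had a slope of -0.13 ± 0.06 (adjusted p = 0.056), and one of -0.34 (adjusted p = 7.64e-07) with the number of detected genes as a covariate. Trp53, the gene of p53, which activates Dux, fell by 0.19 ± 0.05 per unit (adjusted p = 0.000614). None of Duxf3, Gm4981, Dppa2 and Dppa4 was called by diet in the first edgeR fit, over all embryos. Their log2 fold changes were 0.16, -0.12, 0.18 (adjusted p = 0.053) and 0.12. Only Dppa2 of these 4 had an unadjusted p under 0.05, 0.00117. Of the 6 tested activators, Dppa2 was the 1 that stood higher in HFD at an unadjusted p under 0.05, and 1 other stood lower. DESeq2, and edgeR without the libraries with few genes, each called 1 of the 6 activators as higher in HFD, where the first fit called 0. Of all genes these fits called 1.55% and 2.17% as higher.

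Other genes of the 2-cell program were positive as a list. Of 31 tested 2-cell genes, 20 had a positive slope (64.5%, beside 20.3% of all genes) and 0 a negative one, with 1 negative at an unadjusted p under 0.05, and limma-voom called 19 and 2 (61.3% and 6.45%, beside 14.2% and 33.6% of all genes). Many of them belong to families of near-identical copies, so reads can be split or lost among them. The slopes that passed ran from 0.14 to 0.85, and those of the 11 that did not from -0.25 to 0.14. The median slope of the list was 0.26, beside -0.0030 for all genes.

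The strongest by p were Gm5662, Usp17le and Gm8300. Gm5662, at 81.3 to 634 CPM in LFD and 101.8 to 575.7 CPM in HFD embryos, rose by 0.42 ± 0.04 per unit of Zscan4d (adjusted p = 1.4e-22). Usp17le, a deubiquitinase, ranged from 1.03 to 238 CPM in LFD and from 0.521 to 110 CPM in HFD embryos and rose by 0.79 ± 0.08 (adjusted p = 2.16e-18). Gm8300, at 63.7 to 448 CPM in LFD and 87.6 to 479 CPM in HFD embryos, rose by 0.39 ± 0.04 (adjusted p = 8.03e-18). The count was 18 positive in LFD embryos and 18 in HFD embryos by themselves (58.1% in each, beside 14.7% and 11.1% of all genes). In LFD embryos 1 slope was negative (3.23%, beside 12.3% of all genes). In HFD embryos 0 were (beside 12% of all genes), also 0 at an unadjusted p under 0.05.

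Of the 17 repressors, chromatin and RNA-binding proteins known to keep the 2-cell program off, 2 had a positive and 4 a negative slope, shares of 11.8% and 23.5%. Ehmt2, the H3K9 methyltransferase G9a, ranged from 0 over a median of 5.49 to 36.03 CPM in LFD and from 0 over 5.99 to 31.9 CPM in HFD embryos and fell by 0.59 ± 0.13 per unit (edgeR, adjusted p = 5.52e-05). Chaf1b, a subunit of the chromatin assembly factor CAF-1, fell by 0.16 ± 0.05 (adjusted p = 0.00423) and Trim28, the corepressor KAP1, by 0.19 ± 0.06 (adjusted p = 0.00606). limma-voom called 0 positive slopes, also 0 at an unadjusted p under 0.05, and 8 negative ones in this list (47.1%, beside 33.6% of all genes). edgeR called 2 and 8 with the number of detected genes as a covariate, where 24.6% of all genes had a negative slope.

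Maternal transcripts, which the egg stores and the embryo degrades, had 11 positive slopes and 1 negative one among 18 tested (61.1% and 5.56%), and a median slope of 0.14. Nobox, a homeobox factor of the oocyte, rose by 0.41 ± 0.05 (edgeR, adjusted p = 4.01e-13), Dppa3, which protects maternal DNA methylation, by 0.30 ± 0.04 (adjusted p = 4.52e-11) and Btg4, which directs the removal of maternal mRNA, by 0.19 ± 0.03 (adjusted p = 9.2e-08). In LFD embryos by themselves 11 of the 18 were positive (61.1%, beside 14.7% of all genes in that fit). In HFD embryos 4 were (22.2%, beside 11.1% of all genes), and whether the diets differ in this was not tested.

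Transcription factors of the early embryo went both ways, with 5 positive and 4 negative slopes among 15 tested (33.3% and 26.7%). Obox1, an oocyte-specific homeobox gene, rose by 0.39 ± 0.05 (edgeR, adjusted p = 1.89e-10) and Klf17 by 0.22 ± 0.03 (adjusted p = 1e-08), while Rarg, a retinoic acid receptor, fell by 0.52 ± 0.09 (adjusted p = 6.99e-07). The negative count was 9 of 15 with the number of detected genes as a covariate and 8 without the libraries with few genes, beside 24.6% and 24.3% of all genes in those fits.

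Genes of telomere upkeep, recombination and methylation had 3 positive slopes and 1 negative one among 14 tested (21.4% and 7.14%). Blm, the Bloom helicase, rose by 0.26 ± 0.04 (edgeR, adjusted p = 5.19e-08) and Uhrf1, which guides maintenance methylation, by 0.26 ± 0.06 (adjusted p = 9.78e-05), while Terf2ip, the shelterin protein Rap1, fell by 0.26 ± 0.07 (adjusted p = 0.000564). Other genes of the SCAN family had 3 positive and 3 negative slopes among 18 tested, 16.7% each. Zscan5b fell by 0.33 ± 0.06 (adjusted p = 4.64e-06), and Zkscan6 rose by 0.33 ± 0.08 (adjusted p = 0.00015) and Zscan21 by 0.14 ± 0.04 (adjusted p = 0.00163).

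Markers of other cells were few among the tested genes. Of 3 tested cumulus markers 1 had a positive slope, Cyp19a1, and 0 a negative one. Of 5 tested macrophage markers 2 had a negative one, Cd68 and Csf1r, and 0 a positive one. These shares of 33.3% and 40% were near the 41.8% of all genes called with either sign. The signs depended on the fit. limma-voom called 0 positive and 1 negative slope for the cumulus markers, and 1 and 2 for the macrophage markers (beside 14.2% and 33.6% of all genes). With the summed members as predictor 0 of the 5 macrophage markers were called (beside 40.6% of all genes). In either diet by itself 0 of the 3 cumulus markers were called (beside 27.1% and 23% of all genes). No sperm marker passed the filter. In LFD embryos by themselves 2 of the 5 macrophage markers had a positive slope (40%, beside 14.7% of all genes). A negative one was found for 0 of them (beside 12.3% of all genes), and both counts were the same at an unadjusted p under 0.05.

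**Figure D5:**
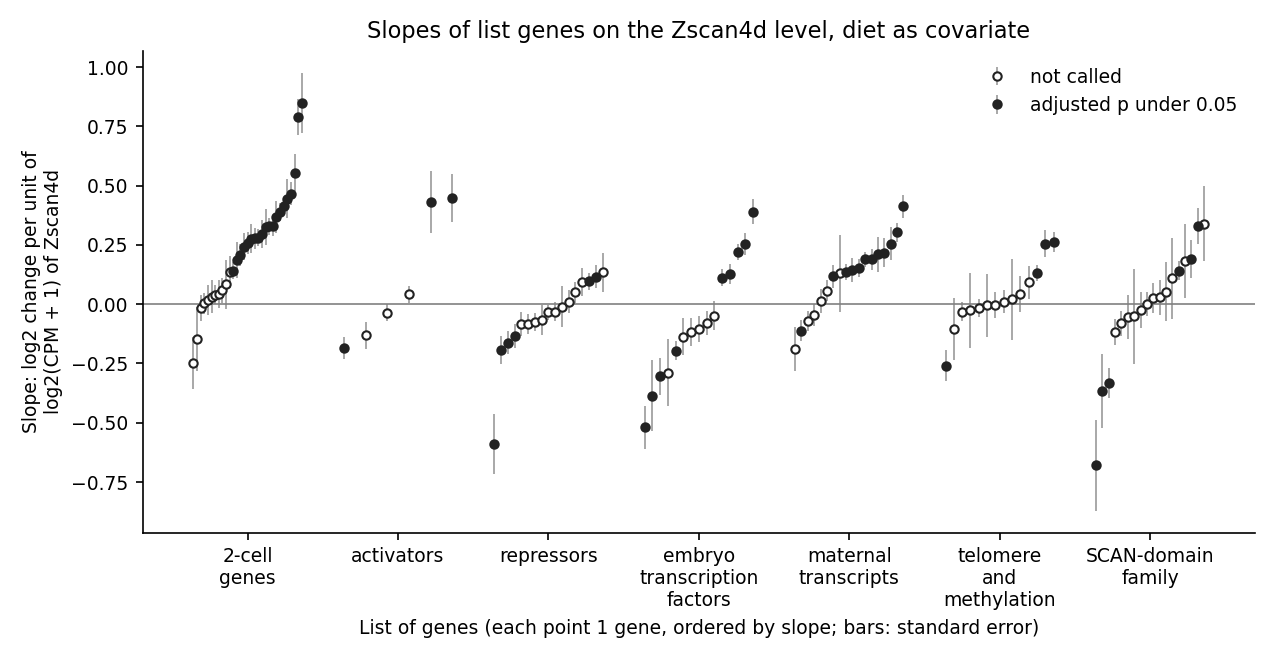
Each point is 1 tested gene of a list, with its slope on the Zscan4d level on the vertical axis (log2 change per unit of log2(CPM + 1), bars: SE), and filled points have an adjusted p under 0.05. Of the 31 2-cell genes 20 are filled and positive and 0 filled and negative, while the other lists hold both signs.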

How the data were processed

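The members and lists were chosen with earlier results of these data known. The deposited values are raw counts per gene for each embryo, named by symbol only. Per the study's methods and the file headers, the authors trimmed paired 150-base Smart-seq2 reads (Trim Galore 0.6.6), aligned them with STAR 2.7.10a to GRCm38 carrying the Staudach mitochondrial sequence, and counted reads over Ensembl exons with featureCounts 2.0.3 (strand setting 2, each read of a pair counted, reads that align to several places left out). If the kit kept no strand, that setting drops reads, and whether the loss was alike for all copies was not measured. No depth interval was computed, because the libraries were amplified by PCR and carry no molecular identifiers.

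All genes were fitted with edgeR 4.0.16 (TMM, filterByExpr by diet, FDR 0.05) in R 4.3.3. The spread was tested with limma 3.58.1. Slopes used log2(CPM + 1) of Zscan4d, and correlations 100000 two-sided permutations. Scripts were tested on simulated data. Windows and exons come from GENCODE M21, promoters from RefSeq. Named genes were the 6 members, the 10 most and 10 least alike to Zscan4d in LFD embryos, the 3 smallest slope p of each list, Dux, Dppa2 and Dppa4. Cd68, Csf1r and Cyp19a1 were named after their values were seen. Alternatives included DESeq2 1.42.0. Python 3.11.15 served the other steps.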

Additional observations from a re-analysis of the deposited data

Results flagged for a closer look

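The slope on Zscan4d differed between the diets for 1 gene, Olfr624 (chr7:103665461-103671191), an olfactory receptor gene, by a test of the interaction of diet and the Zscan4d level in edgeR. The slope was 1.19 ± 0.14 (SE) in LFD and 0.38 ± 0.09 in HFD embryos, a difference, HFD minus LFD, of -0.81 ± 0.16 (adjusted p = 0.0165). Olfr624 had a median of 5.38 CPM in LFD and 6.52 CPM in HFD embryos, and its highest value, 385 CPM, was that of LFD embryo 73, one of the 8 libraries with few genes. Without these libraries the adjusted p was 0.9997, and with the summed members in place of Zscan4d it was 0.64. Spearman's rho of Olfr624 with Zscan4d was 0.27 in LFD and 0.24 in HFD embryos.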

How the results depend on the processing

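The log2 fold changes of the members kept their direction in all 60 alternative values, 10 for each member, and 59 kept their side of the threshold. The exception was Zscan4c without a low-count filter, at 0.35 (edgeR, adjusted p = 0.0444). Of these alternatives, 3 per member changed more than 1 choice, since they used limma-voom with the embryos or the blocks also changed. The log2 fold changes ran from 0.24 to 0.34 (Zscan4a, adjusted p from 0.051 to 0.26), 0.03 to 0.18 (Zscan4b), 0.29 to 0.44 (Zscan4c), 0.20 to 0.30 (Zscan4d), -0.13 to -0.04 (Zscan4e) and 0.14 to 0.30 (Zscan4f). Genes called by diet, 318 at first, came to 7030 (15.4%) without the filter, of which 6304 are genes that the filter removes, to 546 without the libraries with few genes, and to 796 with a replicate block by embryo number over the 188 embryos whose number occurs in both diets. That fit used limma-voom, because edgeR with the block was not run, and an added fit of the same embryos without the block, chosen after seeing the data, called 809. Embryos of the same number in both diets did not deviate together: the correlation over genes had a median of 0.01, exceeded 0.1 in 17 of 94 pairs, and 0 embryos correlated best with their own number. Genes whose spread differed by diet, 8 at first, numbered 16 with deviations from the mean, 2 with the replicate block and 60 without the libraries with few genes. Slopes on Zscan4d were called for 4009 genes in LFD and 3413 in HFD embryos alone against 6194, and for 5395 with the replicate block. The 1 interaction became 0 with the summed members, 0 with the replicate block and 0 without the libraries with few genes, where 610, 545 and 690 genes had an unadjusted p under 0.05. The cause of these shifts was not tested. Zscan4f, Zscan4e and Zscan4b rest on the fewest unique windows of the members (232, 361 and 515), and Zscan4e and Zscan4b also on a median of 135 and 168 counts, which limits what can be said of them.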
